A study of Rattus norvegicus and Bos taurus with 6 samples.

Results

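The measurements described here follow 8 genes of steroid signalling through rat and cow adipose tissue: the receptors Nr3c1, Nr3c2, Esr1 and Pgr, the enzyme Hsd11b1, and the glucocorticoid response genes Fkbp5, Tsc22d3 and Zbtb16. They were taken by symbol, in any case of the letters. All 8 were listed once in each annotation, among 38697 genes for the rat Parse libraries, 25629 for the rat 10x library and 36075 for the cow library. The data are 6 single-nucleus RNA-seq libraries, 1 per condition, in which each transcript is counted by its unique molecular identifier (UMI).

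The 5 rat libraries came from male Dahl SS rats (SS/HsdMcwiCrl, supplied by Charles River and killed with Pentobarbital). Mesenteric perivascular adipose tissue (mesPVAT) was run on 10x 3' v3 as batch 1. Batch 2, on Parse Evercode WT v3, held mesPVAT, retroperitoneal (RP) fat, thoracic aorta perivascular adipose tissue (taPVAT) and subscapular brown adipose tissue (BAT). It also held flank subcutaneous white fat (cow WAT) of the Holstein breed, sex female. The methods name lactating cows, sampled early in a lactation that was not their first. All tissue was snap frozen with the disease given as normal, no hormone or drug treatment was named, and neither ages nor the number of animals behind a library were found in the sources used here. White rat and cow homogenates were pelleted at a higher speed than taPVAT, and only the 10x nuclei, isolated by another published protocol than the Parse nuclei, were sorted by DAPI. On Parse, cow homogenates also passed a finer filter than rat ones. Rat tissue was dissected into salt solution after deep anaesthesia, and cow fat was collected by another protocol. Species, sex, depot, lactation, tissue collection, filtering, genome build and annotation therefore change together between cow and rat and cannot be told apart. Nor can platform, isolation, batch and annotation between 10x and Parse. The white rat Parse libraries are called labelled mesPVAT and labelled RP fat, because the study's text gives their median genes per nucleus in the other order from the deposited libraries. Which depot each holds was not settled, and every value of a single white depot rests on its label.

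The steroid receptors are transcription factors that wait for a lipid-soluble hormone. The glucocorticoid receptor is held ready by chaperones, moves to the nucleus with cortisol or corticosterone, and turns on genes such as Fkbp5, Tsc22d3 and Zbtb16, while Hsd11b1 remakes active hormone from its inert form inside the cell. In fat, glucocorticoids act on adipocyte differentiation and lipid storage, and the mineralocorticoid receptor, also present there, binds the same hormones.

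Depth set how far each library could be read. The library labelled RP fat had the fewest UMIs, 845316, and cow WAT the most, 16827260, with median UMIs per nucleus between 161 (mesPVAT on 10x) and 3530 (cow WAT). Levels are given as CPM, the UMIs of a gene over all UMIs scaled to counts per 1000000, over all nuclei of a library, with exact Poisson 95% intervals in brackets, and shares of nuclei have exact binomial intervals. Both cover counting error only, and because no condition was replicated no test was made between conditions. No barcode was shared between libraries. Ucp1, the thermogenic uncoupling protein, checked the depot labels: it was at 1782 CPM in taPVAT and 2072 CPM in BAT, against 63.4 and 89.9 CPM in the white rat Parse libraries and below 1 CPM in mesPVAT on 10x and cow WAT. A UMI of Plin1, a lipid-droplet coat protein of adipocytes, was found in 60.4% of taPVAT, 69.1% of BAT, 17.5% of cow, 11.4% of 10x mesPVAT, 22.0% of labelled mesPVAT and 9.59% of labelled RP fat nuclei.

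Nr3c1 encodes the glucocorticoid receptor and spans chr18:31522783-31644508 in the rat build GRCr8. It was at 301 CPM [271, 333] in mesPVAT on 10x, 699 [678, 720] in BAT, 654 [632, 676] in taPVAT, 251 [228, 276] in labelled mesPVAT, 136 [112, 163] in labelled RP fat and 360 [351, 369] in cow WAT. The brown depots were highest and labelled RP fat lowest, and the only neighbours in the order of levels with overlapping intervals were the 2 mesPVAT libraries. Per kilobase of gene span, Nr3c1 had the highest level of the 8 genes in each of the 4 rat Parse libraries, from 1.12 CPM per kilobase in labelled RP fat to 5.74 in BAT, where it stood above 95.3% of the 17841 genes compared.

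Nr3c2, the mineralocorticoid receptor (chr19:47619853-47964089), varied less. Its level was 214 CPM [189, 242] in mesPVAT on 10x, 496 [478, 513] in BAT, 374 [357, 391] in taPVAT, 287 [262, 314] in labelled mesPVAT, 270 [236, 307] in labelled RP fat and 275 [267, 283] in cow WAT. BAT and then taPVAT were above the rest, while each interval among the other 4 libraries overlapped that of its neighbour in the order. Per kilobase of gene span its level in BAT was 1.44 CPM, below the 5.74 of Nr3c1 there.

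Esr1, the alpha oestrogen receptor (chr1:43511685-43904454), had the opposite order. It was at 323 CPM [292, 357] in mesPVAT on 10x, 40.04 [35.3, 45.3] in BAT, 34.3 [29.4, 39.8] in taPVAT, 104 [89.4, 121] in labelled mesPVAT, 102 [81.4, 126] in labelled RP fat and 69.4 [65.5, 73.5] in cow WAT. The 10x library was highest and the brown libraries lowest. Other genes with few UMIs were higher in the white Parse libraries too: Cyp19a1, which makes oestrogen, was at 9.05 and 18.9 CPM in labelled mesPVAT and labelled RP fat against 2.35 and 1.58 in taPVAT and BAT, and Esr2, the beta receptor, at 59.2 and 68.6 against 17.7 and 15.8. Of all 23986 genes compared, 55.0% were at least 2-fold lower in the brown than in the white Parse libraries. What part of the Esr1 values comes from something shared with these genes was not tested.

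Pgr, the progesterone receptor (chr8:14354398-14413271), was the least counted of these 4 receptors. It had 0 UMIs in mesPVAT on 10x, where 3 counts, the limit that a count of 0 allows, are 2.42 CPM, 14 UMIs or 2.22 [1.21, 3.72] in BAT, 13 UMIs or 2.55 [1.36, 4.36] in taPVAT, 22 UMIs or 13.3 CPM [8.32, 20.1] in labelled mesPVAT, 27 UMIs or 31.9 [21.1, 46.5] in labelled RP fat and 265 UMIs or 15.8 [13.9, 17.8] in cow WAT. Labelled RP fat was highest, cow WAT and labelled mesPVAT overlapped, and the brown libraries overlapped with the limit on 10x. Cyp19a1 and Esr2 were also higher in the white Parse libraries, as were 55.0% of all 23986 genes by at least 2-fold. The part of what these genes share was not tested.

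Hsd11b1 (chr13:107277526-107327462) regenerates corticosterone or cortisol within cells. It was at 4.85 CPM [1.78, 10.6] in mesPVAT on 10x, 11.9 [9.34, 14.9] in BAT, 13.7 [10.7, 17.3] in taPVAT, 38.6 [29.8, 49.3] in labelled mesPVAT, 46.1 [32.8, 63.1] in labelled RP fat and 15.1 [13.3, 17.1] in cow WAT. The white Parse libraries formed the upper pair and the other 4 libraries a lower group whose neighbours overlapped. Hsd11b2, the enzyme of the reverse reaction, had 1 to 16 UMIs per library, so its level was near or below the limit that 3 counts give in most of them. H6pd, which supplies the cofactor for Hsd11b1, lay between 12.1 CPM in mesPVAT on 10x and 28.0 CPM in cow WAT. Sult1e1, an oestrogen sulfotransferase, followed the same order, at 16.9 and 21.3 CPM in the white Parse libraries against 3.53 and 1.74 in taPVAT and BAT. Its bearing on the Hsd11b1 values was not tested. Of 9 steroid metabolism and transport genes compared, 4 were at least 2-fold lower and 3 higher in the brown libraries, beside 55.0% and 9.48% of all genes.

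Among the response genes, Fkbp5 (chr20:6458931-6577227), a co-chaperone that damps the receptor, set the cow library apart from the 5 rat libraries. It was at 38.8 CPM [28.6, 51.4] in mesPVAT on 10x, 23.1 [19.5, 27.2] in BAT, 28.2 [23.8, 33.2] in taPVAT, 51.3 [41.0, 63.4] in labelled mesPVAT, 43.8 [30.8, 60.3] in labelled RP fat and 929 [915, 944] in cow WAT. All 5 rat libraries lay below 52 CPM, each overlapping its neighbour in the order, and cow WAT lay far above them.

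Tsc22d3 (chrX:109006410-109066389) encodes GILZ, a leucine-zipper protein that mediates anti-inflammatory actions of glucocorticoids. Its levels were 70.3 CPM [56.3, 86.7] in mesPVAT on 10x and 68.1 [64.2, 72.2] in cow WAT, but 7.91 [5.87, 10.4] in BAT, 8.24 [5.94, 11.1] in taPVAT, 5.43 [2.48, 10.3] in labelled mesPVAT and 2.37 [0.287, 8.55] in labelled RP fat. The 10x and cow values overlapped, as did the 4 rat Parse values, which rest on 50, 42, 9 and 2 UMIs. Zbtb16 (chr8:57885886-58073507), the zinc-finger repressor PLZF, was at 584 CPM [542, 628] in mesPVAT on 10x, 157 [147, 167] in BAT, 157 [146, 168] in taPVAT, 207 [186, 230] in labelled mesPVAT, 162 [136, 192] in labelled RP fat and 1209 [1193, 1226] in cow WAT. Cow WAT was highest and 10x mesPVAT second, with labelled mesPVAT above the brown depots and the intervals of labelled RP fat, BAT and taPVAT overlapping.

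**Figure D1:**
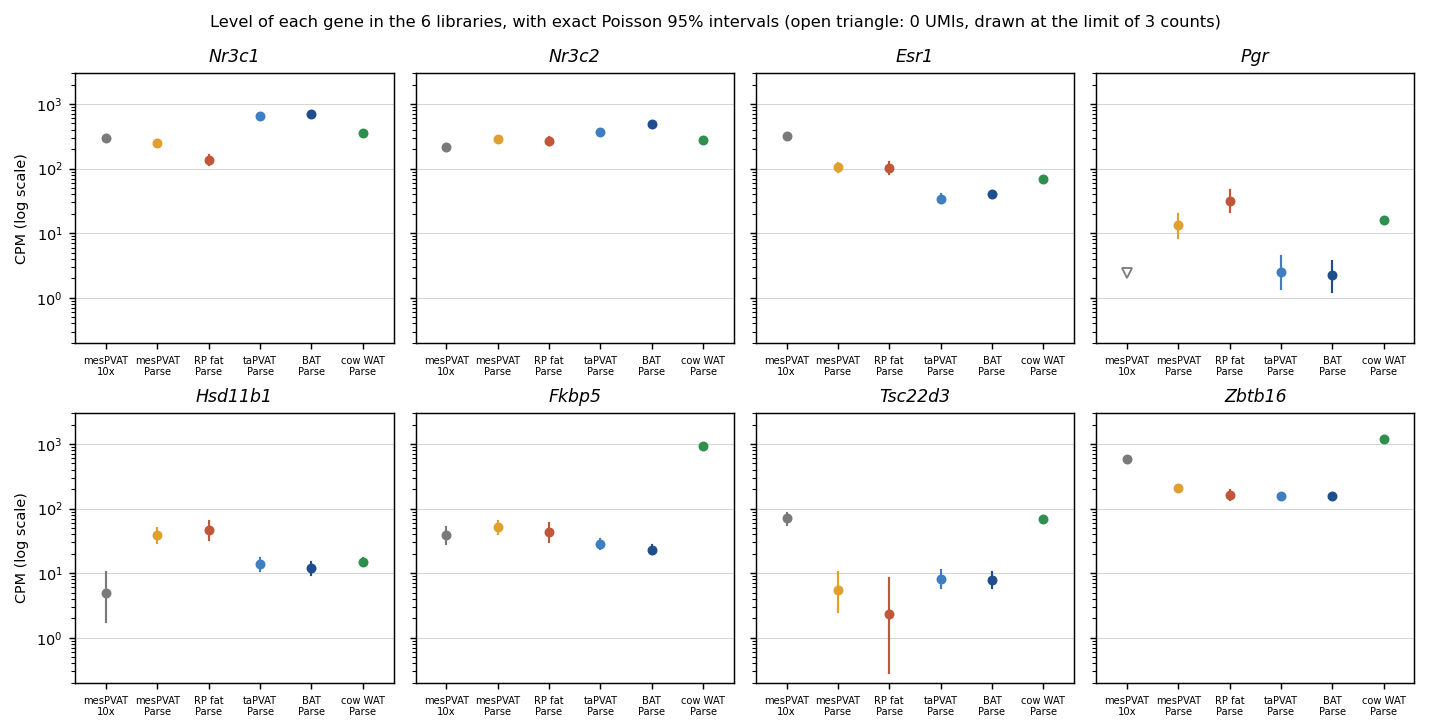
Level of each of the 8 genes (vertical axis, CPM, log scale) in the 6 libraries (horizontal axis), with exact Poisson 95% intervals as bars and an open triangle at the limit of 3 counts where no UMI was counted. Nr3c1 was highest in taPVAT and BAT (654 and 699 CPM), Fkbp5 in cow WAT (929 CPM), and Tsc22d3 in mesPVAT on 10x and cow WAT (70.3 and 68.1 CPM).

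Of the response genes, Fkbp5 differed most between cow WAT and the white rat Parse libraries, and Tsc22d3 most between 10x and Parse. The 250 bases before a RefSeq transcription start of each are therefore shown. They come from the RefSeq table for rat GRCr8, which held windows for 5 of the 8 genes (Nr3c1, Esr1, Pgr, Fkbp5 and Tsc22d3), 8 windows in all. The Fkbp5 window is chr20:6543556-6543805 and the Tsc22d3 window, at the most downstream of its 3 starts in the table, is chrX:109010035-109010284, both on the minus strand. Capitals mark the GC box GGGCGG, which Sp1-type factors bind, and the TATA box TATAAA, both searched on both strands.
Fkbp5: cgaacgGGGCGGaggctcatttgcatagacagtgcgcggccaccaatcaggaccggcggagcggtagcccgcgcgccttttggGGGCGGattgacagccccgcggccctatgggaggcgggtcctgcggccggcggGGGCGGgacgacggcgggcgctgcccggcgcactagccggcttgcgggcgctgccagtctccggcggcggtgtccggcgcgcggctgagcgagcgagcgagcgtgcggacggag
Tsc22d3: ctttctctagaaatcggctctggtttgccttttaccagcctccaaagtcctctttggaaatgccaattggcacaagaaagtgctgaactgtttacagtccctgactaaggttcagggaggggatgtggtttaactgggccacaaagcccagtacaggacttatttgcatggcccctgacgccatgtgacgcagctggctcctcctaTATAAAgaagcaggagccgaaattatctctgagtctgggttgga
The Fkbp5 window held 3 GC boxes in 76% GC, and the Tsc22d3 window shown a TATA box in 49.2% GC. The windows at the other Tsc22d3 starts held no TATA box. At chrX:109065431-109065680 there were 3 GC boxes in 74.4% GC, and at chrX:109066390-109066639 there was 1 in 50% GC. Over the 33469 rat windows of this length, GGGCGG was found in 33.1% and TATAAA in 14.2%, against 6 and 2 of the 8 windows of these genes. The full glucocorticoid response element, AGAACANNNTGTTC, was found in 0.0388% of all windows and AGAACA, which is its first arm and so lies within it, in 20.7%. Both were found in 0 of these 8, again on both strands. These letters are a description of 250 bases, and elements further from the start were not searched.

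A UMI of Nr3c1 was found in 5.69% of mesPVAT nuclei on 10x, 61.4% in BAT, 50.7% in taPVAT, 11.1% in labelled mesPVAT, 3.78% in labelled RP fat and 54.9% in cow WAT. These shares follow depth: with each nucleus thinned to 200 UMIs, they were 5.96, 12.2, 10.5, 5.17, 2.53 and 5.96% in the same order. Thinning left out the shallower nuclei, 3788 in mesPVAT on 10x, 476 in labelled mesPVAT, 1302 in labelled RP fat and 0 in the other 3 libraries. At equal depth BAT and taPVAT had the highest shares of Nr3c1-positive nuclei, and the cow share was close to that of 10x mesPVAT. For Nr3c2 the thinned shares were 4.15, 9.04, 6.13, 5.56, 5.19 and 4.88%, and for Esr1 6.81, 0.852, 0.886, 2.27, 2.13 and 1.26%.

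For the response genes the cow library stayed apart from the rat Parse libraries after thinning. Fkbp5 was found in 72.7% of cow nuclei and 14.2% after thinning, while the thinned shares in the rat libraries ran from 0.445% in BAT to 1.18% in labelled mesPVAT. Zbtb16 was found in 72.9% of cow nuclei, and thinned in 17.9%, against 12.0% in mesPVAT on 10x and 2.73 to 4.23% in the rat Parse libraries. For Tsc22d3 the thinned share was 1.72% in mesPVAT on 10x and 1.52% in cow WAT, and 0.0392 to 0.222% in the rat Parse libraries. In cow WAT, the 10 nuclei with the most UMIs of Fkbp5, Zbtb16 and Tsc22d3 held 8.99, 7.80 and 8.73% of each gene's UMIs. The nuclei with the most Fkbp5 and the most Zbtb16 had 143972 UMIs in all, above the study's limit of 15000. Of 2297 cow nuclei, 2020 passed the study's limits, and all 2297 were used, so very deep nuclei weigh on the cow levels.

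**Figure D2:**
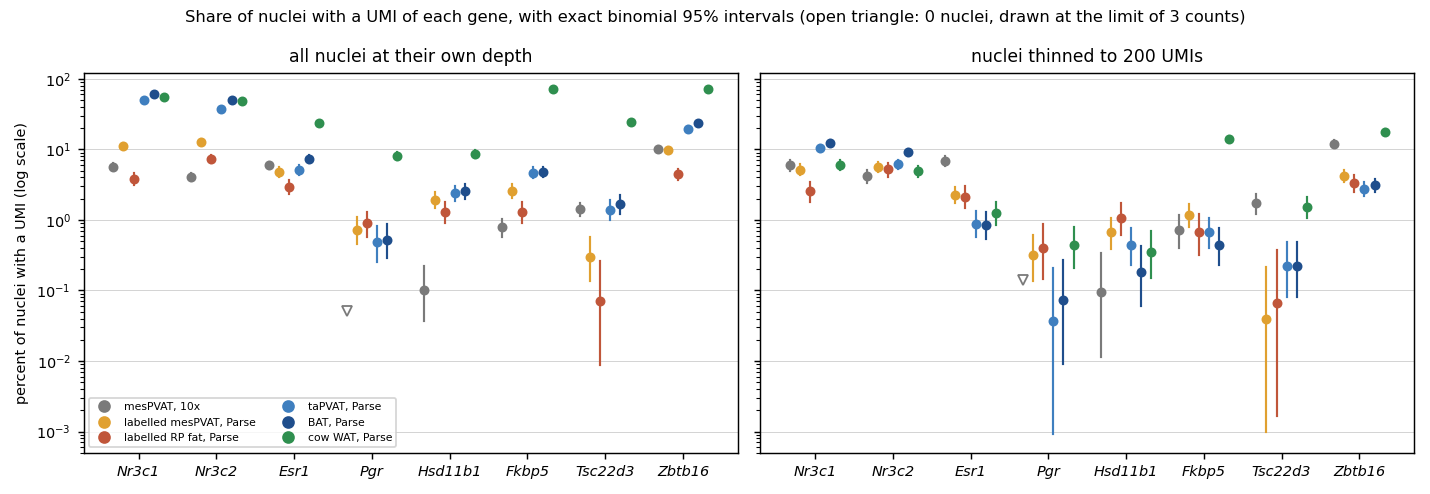
Percent of nuclei with at least 1 UMI of each gene (vertical axis, log scale) by gene (horizontal axis) and library (colour), with exact binomial 95% intervals, at the nuclei's own depth on the left and thinned to 200 UMIs on the right. Fkbp5 stayed far higher in cow WAT after thinning (14.2%), while the Nr3c1 share in cow WAT fell from 54.9 to 5.96%.

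Cell classes of positive nuclei were first read from 4 markers: Plin1 for adipocytes, Ptprb (an endothelial phosphatase) for vessels, Pdgfra for adipocyte stem and progenitor cells (ASPCs) and Notch3 for mural cells. Of the Nr3c1-positive nuclei, 55.3% in taPVAT and 58.9% in BAT had Plin1 as the only marker, against 6.27% in cow WAT, where 16.8% had Ptprb, 10.2% Pdgfra and 12.9% Notch3 alone. No marker was found in 72.2% of Nr3c1-positive nuclei of mesPVAT on 10x, 7.97% in BAT, 11.8% in taPVAT, 35.7% in labelled mesPVAT, 71.7% in labelled RP fat and 20.2% in cow WAT. A marker was thus found in most Nr3c1-positive nuclei of 4 libraries and in few of mesPVAT on 10x and labelled RP fat. Among all nuclei, those with Plin1 alone were 1212 of 2708 in taPVAT, 1431 of 2699 in BAT and, in the cow library, 150 of 2297. The share of Fkbp5-positive nuclei with Plin1 alone was 5.87% in cow WAT, 29.9% in taPVAT and 41.9% in BAT, and that of Zbtb16-positive nuclei 5.61, 50.9 and 52.0%.

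Levels within marker groups, which do not rise with depth as shares do, put Nr3c1 highest in adipocyte-like nuclei of taPVAT and cow WAT. In taPVAT it was at 728 CPM in Plin1-positive, 445 in Ptprb-positive, 452 in Pdgfra-positive and 334 in Notch3-positive nuclei. In cow WAT the values were 483, 287, 346 and 358 CPM. In both libraries the interval of the Plin1 group lay above those of the other groups. In BAT the Plin1 and Ptprb groups were close, at 732 and 742 CPM, with 387 in Pdgfra-positive and 400 in Notch3-positive nuclei.

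Nr3c2 was distributed differently. In cow WAT it was highest in Ptprb-positive nuclei, at 499 CPM against 281 in Plin1-positive, 103 in Pdgfra-positive and 293 in Notch3-positive nuclei, a ratio of Ptprb to Plin1 nuclei of 1.78 [1.56, 2.03]. In BAT the Notch3 and Ptprb groups, at 752 and 617 CPM, were above the Plin1 group at 442 CPM. In taPVAT the Ptprb group, at 491 CPM, was above the Plin1 group at 374 CPM (1.31-fold [1.08, 1.58]), and the intervals of the Pdgfra and Notch3 groups, at 324 and 493 CPM, overlapped with both.

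Esr1 and Fkbp5 were higher in ASPC-like than in adipocyte-like nuclei of the brown depots. Esr1 was at 128 CPM in Pdgfra-positive against 29.1 CPM in Plin1-positive nuclei of taPVAT (4.39-fold [2.23, 7.98], 13 UMIs) and at 215 against 34.3 CPM in BAT (6.27-fold [2.00, 15.04], 5 UMIs in 19 nuclei). Fkbp5 was at 138 against 15.7 CPM in taPVAT (8.75-fold [4.40, 16.4], 14 UMIs) and at 215 against 17.4 CPM in BAT (12.3-fold [3.86, 30.4], 5 UMIs in the same 19 nuclei). Of the 7 genes with enough UMIs, these 2 were at least 2-fold higher in Pdgfra-positive nuclei of taPVAT, where 25.9% of all genes were, and these and Tsc22d3, on 1 UMI, in BAT, where 27.1% were. The shares of members are thus near the background. In mesPVAT on 10x, Esr1 had the other direction, with 537 CPM in Plin1-positive nuclei and 0 UMIs in 47 Pdgfra-positive nuclei. That is at least 3.91-fold lower against 3 counts and 3.12-fold at the near end of the exact interval. By the full marker lists, described further on, it was 3.09-fold lower [1.89, 5.40] in ASPC-like than in adipocyte-like nuclei, on 17 UMIs. In the Parse library labelled mesPVAT these lists gave the direction of the brown depots, at 143 against 83.7 CPM (1.71-fold [1.04, 2.8]). That ratio rests on 32 and 40 UMIs. In that library 1 nucleus with 41374 UMIs in all, above the study's limit of 15000, held 11 of the 173 Esr1 UMIs. Whether that nucleus entered either class was not tested. The Pdgfra-positive nuclei of labelled mesPVAT had 2 UMIs of Esr1, a ratio to Plin1-positive nuclei of 0.858 [0.0995, 3.37].

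The other contrasts were counted in the same way. Against Plin1-positive nuclei, 0 of 7 were at least 2-fold higher in Ptprb-positive nuclei of taPVAT (24.4% of all genes) and 0 of 7 in those of BAT (21.6%). In cow WAT 0 of 8 were in Pdgfra-positive nuclei (16.3%) and 1 of 8 in Ptprb-positive nuclei (18.3%), that gene being Pgr, at 31.0 against 8.58 CPM (3.62-fold [1.78, 8.29]). At least 2-fold lower were 3 of 7 in Ptprb-positive nuclei of taPVAT (17.7% of all genes), namely Esr1, Hsd11b1 and Tsc22d3 on 2, 1 and 1 UMIs, with intervals of the ratio that included 1. In BAT 0 of 7 were lower in Ptprb-positive nuclei (21.8%) and 1 of 7 in Pdgfra-positive nuclei (6.37%), Nr3c2 on 5 UMIs, whose interval also included 1, while in Pdgfra-positive nuclei of taPVAT 0 of 7 were (14.1%). In cow WAT Nr3c2 was lower in Pdgfra-positive nuclei, with a ratio of 0.365 [0.294, 0.451], as 1 of 8 against 11.9% of all genes, and Esr1 in Ptprb-positive nuclei, with a ratio of 0.412 [0.294, 0.575], as 1 of 8 against 13.8%. Over the 37 pairs of a gene and a library with at least 10 UMIs, the Plin1 group had the highest level in 10, Ptprb in 10, Pdgfra in 12 and Notch3 in 5. The interval of the leading group lay above all others in 5 of the 37, namely Nr3c1 in taPVAT and cow WAT, Nr3c2 and Pgr in Ptprb-positive and Fkbp5 in Pdgfra-positive cow nuclei. The lead of cow Fkbp5 was small, with a ratio of Pdgfra to Plin1 nuclei of 1.14 [1.05, 1.24]. By the full marker lists its direction was reversed, with a ratio of ASPC-like to adipocyte-like nuclei of 0.86 [0.83, 0.90].

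Stray transcripts bear on these levels. Ucp1, made by brown adipocytes, was at 285, 177 and 203 CPM in Ptprb-, Pdgfra- and Notch3-positive nuclei of taPVAT against 2430 CPM in Plin1-positive nuclei, and at 220, 85.9 and 96.6 against 2743 CPM in BAT. Lipe, an adipocyte lipase, was less far apart, at 499 CPM in Ptprb-positive against 1243 CPM in Plin1-positive nuclei of taPVAT and at 515 against 1332 CPM in BAT. In cow WAT the adipocyte gene Cidec was at 4.85 to 6.83 CPM in the non-adipocyte groups against 203 CPM. In Ptprb-positive against Plin1-positive nuclei, Lipe was at 416 against 661 CPM in labelled mesPVAT and 105 against 324 CPM in labelled RP fat. In mesPVAT on 10x it was at 1430 against 4422 CPM. Cidec was at 24.9 against 272, 34.9 against 127 and 34.9 against 448 CPM in the same order of libraries. The part of stray transcripts in the levels of Nr3c1 and the other genes was not tested.

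Assigning nuclei from the full marker lists gave larger classes and the same leading classes for Nr3c1 in taPVAT and cow WAT. In taPVAT it was at 721 CPM in adipocyte-like nuclei, 568 in endothelial-like, 418 in ASPC-like, 426 in mural-like and 433 in immune-like nuclei. In BAT it was at 728, 700, 501, 474 and 775 CPM, and in cow WAT at 468, 286, 365, 355 and 288 CPM, in the same order. The cow adipocyte-like level was 1.64 times [1.52, 1.77] the endothelial-like level, and in BAT the immune-like interval overlapped the adipocyte-like one. Over the cow library the adipocyte list was led by Ghr and Dgat2, at 1022 and 565 CPM. Its other counted genes lay between 49.9 CPM for Cidec and 226 CPM for Lipe, and Adipoq was not listed. Of the 6055 cow Nr3c1 UMIs, 1941 were in adipocyte-like and 507 in Plin1-positive nuclei. In the study's own annotation adipocytes were only a small part of the cow nuclei. Whether cow nuclei of other types entered the adipocyte-like class through Ghr or Dgat2 was not tested, and every cow adipocyte-like level rests on that class.

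With these classes the level of Nr3c2 was higher in endothelial-like and mural-like than in adipocyte-like nuclei of BAT and cow WAT. In BAT it was at 681 CPM in endothelial-like and 698 in mural-like nuclei against 455 in adipocyte-like nuclei, ratios of 1.5 [1.36, 1.65] and 1.54 [1.36, 1.73]. Of the 3131 Nr3c2 UMIs of BAT, 2144 were in adipocyte-like nuclei. In cow WAT the endothelial-like level of 498 CPM was 1.85-fold [1.71, 1.99] the adipocyte-like level of 269 CPM, and ASPC-like and immune-like nuclei were lower, at 165 and 147 CPM. In taPVAT immune-like nuclei were lowest, at 178 against 375 CPM in adipocyte-like nuclei.

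Esr1 in ASPC-like nuclei was at 97.5 CPM in taPVAT and 231 CPM in BAT, against 32.7 and 35.2 CPM in adipocyte-like nuclei (2.98-fold [1.94, 4.46] and 6.56-fold [4.29, 9.72]). The 2 sublibraries of each gave 111 and 88.5 against 31.7 and 33.8 CPM in taPVAT, and 244 and 219 against 35.8 and 34.6 CPM in BAT, so the order was the same in both. In taPVAT endothelial-like nuclei Esr1 had 2 UMIs, 3.92 CPM. Cow WAT differed: ASPC-like and adipocyte-like nuclei were at 91.6 and 85.9 CPM with a ratio of 1.07 [0.930, 1.22], immune-like nuclei at 69.1, and endothelial-like and mural-like nuclei at 28.0 and 30.9 CPM. Cow Pgr was at 28.5 CPM in endothelial-like against 10.9 CPM in adipocyte-like nuclei (2.63-fold [1.83, 3.82]).

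Hsd11b1 was counted too rarely to place in most classes. In taPVAT it was at 34.6 CPM, on 11 UMIs, in ASPC-like against 13.2 CPM in adipocyte-like nuclei (2.62-fold [1.23, 5.12]), and in labelled mesPVAT at 71.7 against 23.0 CPM (3.11-fold [1.36, 7.42]), on 16 and 11 UMIs. Immune-like nuclei of labelled mesPVAT were at 76.2 CPM, on 3 UMIs, too few to rank against these. The marker groups did not show the same lean in taPVAT, with 0 UMIs in Pdgfra-positive and 31 in Plin1-positive nuclei. The interval of that ratio reached 3.16. In labelled mesPVAT the Plin1 group had the highest level, at 38.55 CPM, and 1 Pdgfra-positive nucleus had a UMI of Hsd11b1. The nucleus of 41374 UMIs held 4 of the 64 Hsd11b1 UMIs of that library. In cow WAT Hsd11b1 was level, at 15.6 CPM in ASPC-like and 17.4 CPM in adipocyte-like nuclei. Fkbp5 in the brown depots was at 101 CPM in ASPC-like against 20.1 CPM in adipocyte-like nuclei of taPVAT (5.02-fold [3.20, 7.70]) and at 77.0 against 19.3 CPM in BAT (3.99-fold [1.85, 7.68]). Immune-like nuclei there were at 61.1 and 87.7 CPM, 3.05-fold [1.456, 5.774] and 4.54-fold [1.625, 10.28] the adipocyte-like level, on 11 and 6 UMIs. In labelled mesPVAT and mesPVAT on 10x the ASPC-like ratios of Fkbp5 were 0.517 [0.191, 1.205] and 1.06 [0.356, 2.629].

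**Figure D3:**
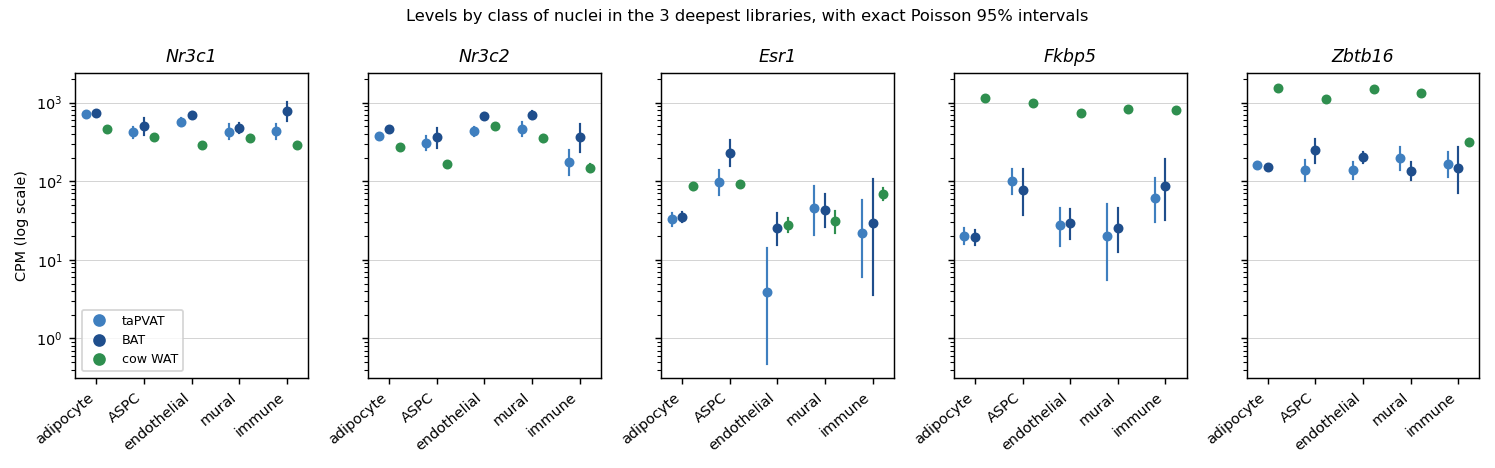
Levels of 5 genes (vertical axis, CPM, log scale) in 5 classes of nuclei (horizontal axis) of taPVAT, BAT and cow WAT, with exact Poisson 95% intervals as bars. Nr3c1 lay between 286 and 775 CPM in all 15 groups, Esr1 was highest in ASPC-like nuclei of BAT (231 CPM), and cow Zbtb16 was lowest in immune-like nuclei (320 CPM).

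The cow classes differed in which response gene was high. ZBTB16 was at 1537 CPM in adipocyte-like, 1476 in endothelial-like, 1307 in mural-like and 1114 in ASPC-like nuclei, and at 320 CPM in immune-like nuclei, 4.81-fold lower than in adipocyte-like nuclei [4.41, 5.24]. The 2 sublibraries gave 354 and 281 against 1658 and 1434 CPM. TSC22D3 went the other way, with 110 CPM in immune-like against 59.3 CPM in adipocyte-like nuclei (1.85-fold [1.52, 2.24]). FKBP5 was within a narrower range, from 728 CPM in endothelial-like to 1155 CPM in adipocyte-like nuclei. Ptprc, an immune marker, was at 121 to 155 CPM in all 4 marker groups of cow nuclei, near its 144.5 CPM over the library. Among the 150 Plin1-positive nuclei its 135 UMIs lay in 39. Whether these were stray transcripts or immune nuclei within the groups was not tested.

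The library difference of Fkbp5 between cow WAT and the rat Parse libraries was found in each class. Its cow interval lay above the interval of every rat Parse library in 5 of 5 classes, by 8.95-fold (endothelial-like) to 19.02-fold (adipocyte-like) over the highest rat value. For Zbtb16 this held in 4 of 5 classes, with 4.52-fold to 7.32-fold in those, and not in immune-like nuclei, where the ratio was 1.05. For Tsc22d3 it held in 1 of 5, ASPC-like nuclei, with ratios of 2.60 to 6.96 over the classes on few rat UMIs.

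**Figure D4:**
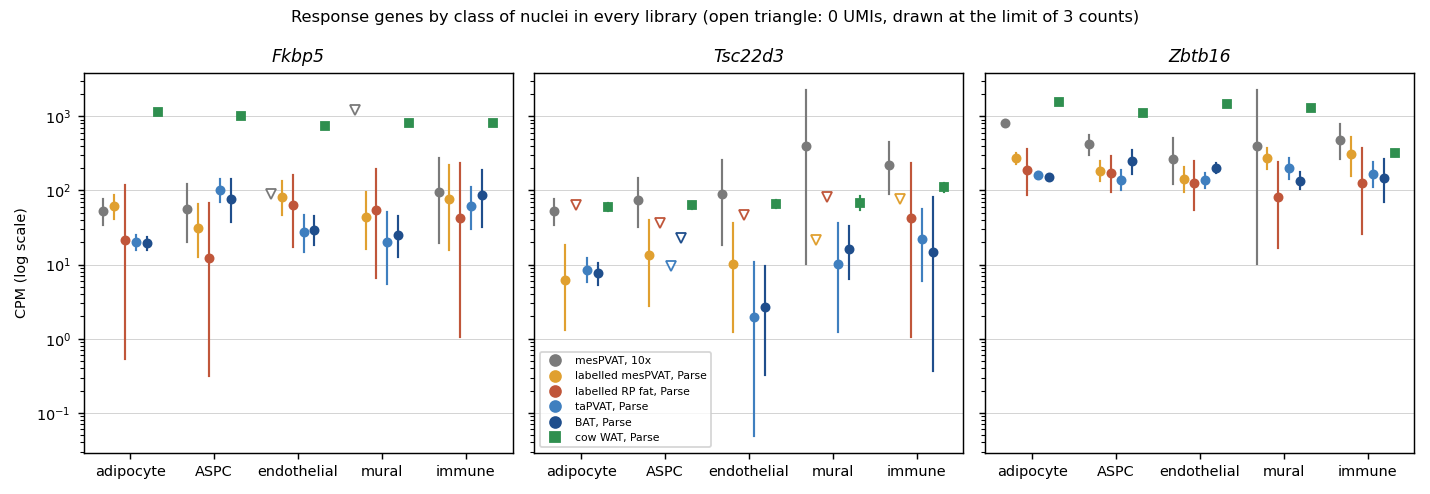
Levels of Fkbp5, Tsc22d3 and Zbtb16 (vertical axis, CPM, log scale) in 5 classes of nuclei (horizontal axis) of all 6 libraries (colour, cow as squares), with exact Poisson 95% intervals and open triangles at the limit of 3 counts where no UMI was counted. Cow Fkbp5 (728 to 1155 CPM) lay above every rat Parse library in all 5 classes, while cow Zbtb16 in immune-like nuclei (320 CPM) lay among the rat values.

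The first comparison of libraries set taPVAT beside BAT, both brown-like by Ucp1. Of the 8 genes, 0 were at least 2-fold higher and 0 at least 2-fold lower in taPVAT, where 6.00% and 1.09% of 18640 genes were. Nr3c2 had the largest difference, with a ratio of 0.754 [0.712, 0.799], and Nr3c1 a ratio of 0.936 [0.894, 0.979]. The intervals of the other 6 ratios included 1, from 0.857 for Esr1 to 1.22 for Fkbp5, and the median log2 ratio of all genes was 0.11.

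Between the white Parse libraries, 0 of the 7 genes with at least 20 UMIs were at least 2-fold higher in labelled mesPVAT (5.84% of 18474 genes) and 1 was at least 2-fold lower (9.79%). That gene was Pgr, 2.41-fold lower [1.32, 4.43] on 22 and 27 UMIs. Nr3c1 was 1.85-fold higher [1.5, 2.29] in labelled mesPVAT, where 22.0% of nuclei had Plin1 against 9.59%, and the part of that difference in class was not tested. Zbtb16 was 1.28-fold higher [1.05, 1.57], and the intervals of Nr3c2, Esr1, Hsd11b1 and Fkbp5 included 1. Taking another scaling (TMM, which assumes that most genes are level) left Pgr lower but by less than 2-fold and put Nr3c1 past 2-fold, with the median log2 ratio of all genes moving from -0.25 to 0.12. With nuclei of at least 500 UMIs Pgr had too few UMIs to be compared, and Nr3c1 was past 2-fold at a log2 ratio of 1.13.

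The brown depots (mean of taPVAT and BAT) were next set against the white rat Parse libraries. Most genes had a lower CPM in the brown libraries, with a median log2 ratio of -1.41 over 23986 genes, so ratios are also read against that median. Of the 8 genes, 2 were at least 2-fold higher (9.48% of all genes) and 3 at least 2-fold lower (55.0%). Nr3c1 was higher, at 676 against 194 CPM (3.49-fold), above the ratio of 97.0% of all genes. Tsc22d3 was at 8.07 against 3.90 CPM (2.07-fold), on 11 white UMIs, and its interval in either white library overlapped those of the brown libraries. Those lower were Pgr (9.49-fold), Hsd11b1 (3.31-fold) and Esr1 (2.77-fold). All 3 were below the median of all genes, Esr1 only just, with a log2 ratio of -1.47.

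The scaling decided several of these directions. With TMM the median of all genes was 0.10, 4 of the 8 genes were at least 2-fold higher and 1 lower. The log2 ratio under TMM was 3.26 for Nr3c1, 2.49 for Tsc22d3, 2.16 for Nr3c2, 1.25 for Zbtb16 and -1.67 for Pgr, while Esr1 changed sign to 0.05, Fkbp5 from -0.89 to 0.59 and Zbtb16 from -0.24. Nr3c1 and Tsc22d3 were thus past 2-fold higher and Pgr past 2-fold lower under both scalings. Tsc22d3 was under 2-fold with the study's limits on nuclei and with nuclei of at least 500 UMIs, at log2 ratios of 0.83 and 0.56. The brown libraries also had 60.4 and 69.1% of nuclei with Plin1 against 22.0 and 9.59%, and the part of that in the ratios was not tested. Within Plin1-positive nuclei Nr3c1 was at 728 and 732 CPM in taPVAT and BAT and at 342 and 139 CPM in labelled mesPVAT and labelled RP fat, the last on 12 UMIs. In the same order of libraries, Lipe in these nuclei was at 1243, 1332, 661 and 324 CPM. Cidec was at 274, 270, 272 and 127 CPM. How far these groups hold adipocytes alike was not tested.

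The comparison of mesPVAT on 10x with the Parse library labelled mesPVAT had 3 of 8 genes at least 2-fold higher on 10x (22.8% of 12067 genes) and 2 at least 2-fold lower (32.4%). Tsc22d3 was 12.9-fold higher [6.51, 29.3], above 98.1% of all genes, Esr1 3.10-fold [2.58, 3.72] and Zbtb16 2.82-fold [2.48, 3.22]. Hsd11b1 was 7.97-fold lower [3.47, 22.5] on 6 and 64 UMIs, and Pgr, with 0 UMIs on 10x, at least 5.48-fold lower against 3 counts and 4.09-fold at the near end of the exact interval. In nuclei of at least 500 UMIs and in either sublibrary alone Pgr had too few UMIs to be compared. Nr3c1 differed by 1.2-fold [1.04, 1.38] and Nr3c2 by 0.747 [0.640, 0.870]. Parse primes RNA at random positions as well as at its tail and 10x at its tail, and platform, isolation, batch and annotation cannot be told apart. The comparison also rests on the label of the Parse library.

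Cow WAT was last set against the white rat Parse libraries, which also served in the comparisons with the brown depots and with 10x. Of the 8 genes, 3 were at least 2-fold higher (15.1% of 14017 genes) and 1 at least 2-fold lower (34.8%), with a median log2 ratio of -0.33. Those higher were the 3 response genes. Fkbp5 was 19.5-fold higher (929 against 47.5 CPM), Tsc22d3 17.5-fold (68.1 against 3.90 CPM) and Zbtb16 6.55-fold (1209 against 185 CPM), above 99.8, 99.7 and 98.7% of all genes. Hsd11b1 was 2.81-fold lower. The receptors differed by less, with Nr3c1 1.86-fold higher, Nr3c2 at a ratio of 0.987, and Esr1 and Pgr at 0.673 and 0.697. Under TMM Nr3c1 was past 2-fold as well, at a log2 ratio of 1.42, Hsd11b1 was no longer past it, at -0.92, and the median was 0.22. Against mesPVAT on 10x, Tsc22d3 was level with cow WAT (70.3 and 68.1 CPM), so its difference between cow and rat rests on the Parse libraries. Zbtb16, at 584 CPM on 10x, was nearer to its cow level of 1209 CPM than in the white Parse libraries. Fkbp5, at 38.8 CPM on 10x, stayed far below its cow level.

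**Figure D5:**
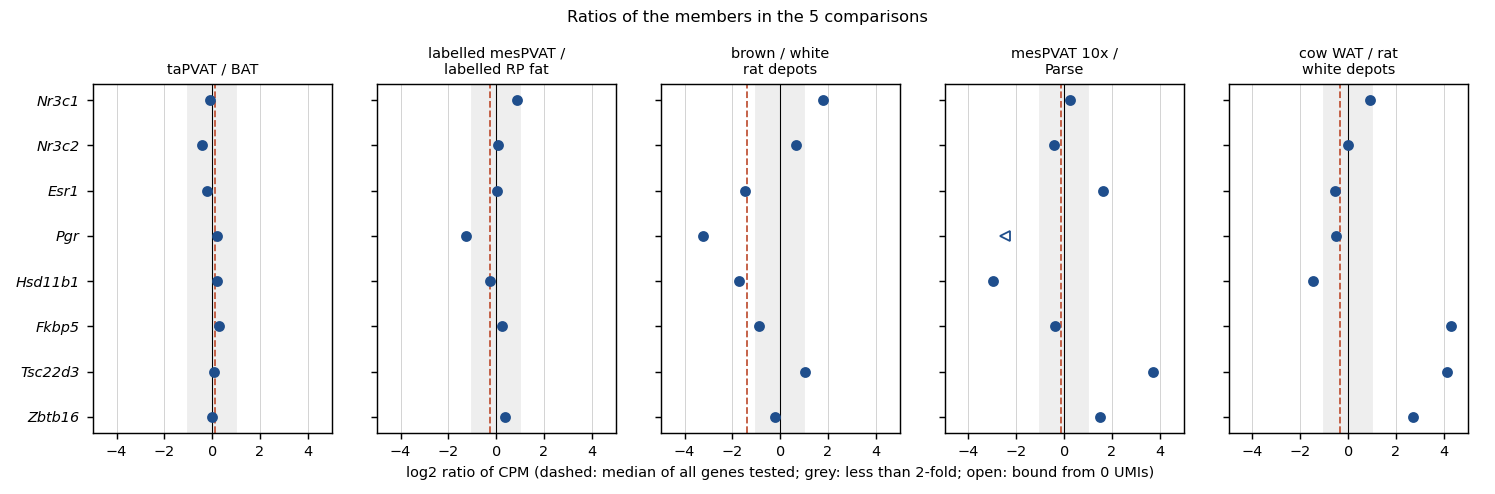
Log2 ratio of CPM (horizontal axis) of each gene (vertical axis) in the 5 comparisons, with the median of all genes dashed, less than 2-fold shaded grey, and an open symbol for a bound from 0 UMIs. No gene left the grey band between taPVAT and BAT, and Fkbp5, Tsc22d3 and Zbtb16 stood at 4.29, 4.13 and 2.71 in cow WAT against the white rat depots.

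Whether receptor and response transcripts sat in the same nuclei was read by splitting nuclei on a UMI of Nr3c1. In cow WAT, FKBP5 was at 995 CPM in Nr3c1-positive and 632 CPM in other nuclei (1.57-fold [1.5, 1.65]) and ZBTB16 at 1262 against 971 CPM (1.3-fold [1.25, 1.35]). The positive cow nuclei were deeper, with a median of 5947 against 2230 UMIs, and the part of depth was not tested. Among cow Plin1-positive nuclei the ratios were 1.70 for FKBP5 and 1.60 for ZBTB16, but 0.408 [0.223, 0.777] for TSC22D3. In taPVAT Fkbp5 was lower in Nr3c1-positive nuclei, at 23.2 against 42.0 CPM (0.554 [0.392, 0.788]), while within its Plin1-positive nuclei the ratio was 0.585 [0.292, 1.23] and in labelled mesPVAT 1.52 [0.930, 2.43], both including 1. Zbtb16 in taPVAT was at 159 against 149 CPM. In BAT the values were close, at 22.4 and 25.8 CPM for Fkbp5 and 156 and 159 CPM for Zbtb16.

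Further genes of the pathway, 52 in 5 lists, place the members. Among 18 other glucocorticoid-induced genes, 17 could be compared between cow WAT and the white rat libraries, of which 11 were at least 2-fold higher in cow and 2 lower (15.1% and 34.8% of all genes), with a median log2 ratio of 1.07 against -0.33 for all genes. The 4 furthest apart were Angptl4, an inhibitor of lipoprotein lipase (7.68-fold lower), Glul, glutamine synthetase (6.22-fold higher), Per1, a clock gene (4.32-fold), and Lpin1, a phosphatidate phosphatase (4.15-fold). These counts rest on the Parse libraries. Against mesPVAT on 10x, Glul was lower in cow WAT (188 against 296 CPM), as was Angptl4 (9.33 against 84.0). Per1 and Lpin1 stayed higher in cow WAT, at 100 and 572 against 41.2 and 444 CPM. On 10x against Parse the same list had 11 higher and 2 lower of 17 (22.8% and 32.4% of all genes), with a median of 2.08 against -0.13. Between brown and white rat libraries it had 7 higher and 3 lower of 17, against 9.48% and 55.0% of all genes, with a median of 0.67 against -1.41, led by Pdk4, which restrains pyruvate oxidation (17.1-fold higher), and Glul (12.3-fold). In mesPVAT on 10x Pdk4 was at 53.3 CPM, against 1083 and 1389 in taPVAT and BAT, and Glul at 296 against 405 and 338. Between taPVAT and BAT the list had 1 higher and 0 lower of 17 (6.00% and 1.09% of all genes), and between the white Parse libraries 0 higher and 1 lower of 15 (5.84% and 9.79%).

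The chaperones that hold the receptor were counted in the same comparisons. In cow WAT 0 of 9 were at least 2-fold higher and 3 were lower, near the 34.8% of all genes, among them Hsp90ab1, the constitutive HSP90 (4.91-fold lower), and their median log2 ratio was -0.88 against -0.33. On 10x 4 of 8 were higher and 0 lower (22.8% and 32.4% of all genes), led by Hsp90aa1, the inducible HSP90 (6.01-fold), and in the brown depots 4 of 9 were higher and 0 lower (9.48% and 55.0%), led by Stip1, which hands clients to HSP90 (2.84-fold). Of 9 coregulators, 4 were higher and 1 lower in cow WAT (15.1% and 34.8% of all genes), and 0 past 2-fold in brown against white. Of 9 genes of steroid metabolism and transport, 3 were higher and 4 lower in the brown depots (9.48% and 55.0% of all genes). Sts, which frees steroids from sulfate, was 8.92-fold higher there, on 15 and 5 UMIs in the white Parse libraries. In mesPVAT on 10x it was at 86.5 CPM, above the 66.9 and 66.6 CPM of taPVAT and BAT. The brown excess of Sts thus rests on the Parse libraries.

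Over the 16 groups formed by the 4 markers in the 4 rat Parse libraries, the genes with the pattern most like that of Nr3c1 were Elovl5 (Pearson r 0.909), Ube3a (0.888) and Usp16 (0.879), on log2(CPM + 10). Those most like Esr1 were Bmper (0.837), Adam12 (0.819) and Magi2 (0.808), and for Nr3c2 Ppp1cb (0.796), Top3b (0.783) and Itga1 (0.779). For Fkbp5 the highest was Gprc5b (0.819), for Tsc22d3 Zfp523 (0.801), for Zbtb16 Dazap2 (0.782), for Hsd11b1 Cntn4 (0.811) and for Pgr, on 21 UMIs, Unc5c (0.809). About 5898 genes were searched for each, and the groups of a library share its depth and stray transcripts, so these are descriptions of likeness and no more.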

How the data were processed

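Samples were put into conditions from their labels, 1 library each, and the depot of the white rat Parse libraries was taken from the labels alone. The authors deposited raw UMI counts per gene and nucleus, without normalization. For the Parse libraries reads were separated by species and run through split-pipe on the rat GRCr8 or the cow ARS-UCD1.3 build, with nuclei from 2 sublibraries together. The 10x counts came from Cell Ranger 7.1.0, with no genome named in its file header. All deposited nuclei were used.

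CPM is a gene's UMIs over the UMIs of all nuclei. A gene entered a comparison with at least 20 UMIs, was called at 2-fold, and with no UMI on a side took the limit of 3 counts, never a fold against the direction of its counts. Brown and white sides were means of 2 libraries. Marker groups had at least 1 UMI of Plin1, Ptprb, Pdgfra or Notch3 and none of the other 3. A panel class, called "-like", was that of 9 fixed marker lists with the most UMIs, at least 2 and no tie, and doublets were not called. Named genes were the members, the 4 genes furthest apart in a list in a comparison, any receptor or metabolism gene, and the 3 genes most like each member among those with at least 200 UMIs. Members and lists were chosen with earlier results of these data known. Intervals were exact at 95% and cover counting error only, and UMIs in 1 nucleus are not independent samples. Alternatives covered the fold, minimum, nuclei kept, sublibrary, scaling, weight of nuclei, marker groups and thinning to 300 UMIs. The comparison code was tested on simulated data.

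Python 3.11.15, numpy 2.4.6, scipy 1.17.1, pandas 2.3.3, matplotlib 3.10.9 and R 4.3.3 with edgeR 4.0.16 (TMM factors only) were used, with seed 20. Promoter windows and gene spans were from RefSeq for GRCr8 in tables that held no window for Nr3c2, Hsd11b1 and Zbtb16. A receptor of the pathway lists is not reported here.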

Additional observations from a re-analysis of the deposited data

How the results depend on the processing

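With 1 library per condition nothing here measures the spread between animals, and shares and groups in the white rat Parse libraries and mesPVAT on 10x are limited by 161 to 346 median UMIs per nucleus. Of 306 log2 ratios recomputed under the alternatives, 267 moved by less than their counting interval, 38 moved by more, and 1 that was past 2-fold changed sign: Esr1 in brown against white depots, at 0.0455 with TMM scaling. Among the others, 24 changed sign from less than 2-fold, 6 of them with TMM scaling. The count of genes past 2-fold between labelled mesPVAT and labelled RP fat, 1 in the report, was 2 with a fold of 1.5, with no minimum of UMIs and in sublibrary 2 alone. Of the 37 leading groups, 18 were the same with classes from the full marker lists, 22 when other markers were allowed, 26 with at least 2 UMIs of the marker and 30 with nuclei of at least 500 UMIs. The pairs led by Notch3-positive nuclei, 5 in the report, were 3 with at least 2 UMIs of the marker, 14 with classes from the full marker lists and 9 with at least 5 UMIs of the gene. Of 48 shares of nuclei thinned to 300 UMIs, 23 moved by more than their interval. The causes were not tested. No paired analysis was possible because each condition has 1 library and no replicate numbers.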
